A study of Arabidopsis with 8 samples.

Results

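The difference between the saur41/40/71/72 quadruple mutant and Col-0 was compared between root and shoot of Arabidopsis thaliana seedlings, gene by gene. For each gene the mutant minus Col-0 difference in root, less the same difference in shoot, is called the interaction, on the scale of log2(FPKM + 1). A negative interaction means that the difference was lower in root than in shoot. Genes entered where their mean level was at least 5 FPKM over the 4 root libraries and at least 5 FPKM over the 4 shoot libraries, which 9789 of the 25397 genes listed at least once did. These 9789 genes are called the members. FPKM is a level counted in sequenced fragments and scaled to transcript length and library size.

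The groups were root of the quadruple mutant, root of Col-0, shoot of the quadruple mutant and shoot of Col-0, each with 2 libraries from 5-day-old seedlings. Col-0 is the wild type of the labels and carries none of the mutations. The sources used here give neither the positions of the mutations in the 4 genes nor whether both libraries of a group were grown apart. The p-values therefore measure the spread between these libraries, which may be technical. Root and shoot are each mixtures of many cell types, and fewer cells of a type cannot be told apart from less RNA per cell.

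SAUR genes encode small proteins whose transcripts accumulate quickly after auxin treatment. Several SAUR proteins bind and inhibit PP2C.D phosphatases, which keeps plasma membrane proton pumps active, acidifies the wall and permits cells to expand. In seedlings the hypocotyl and cotyledons elongate by such wall loosening, while high auxin slows the elongation of roots.

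Marker genes followed the tissue labels. The summed level of 10 root markers lay between 5640 and 6439 FPKM in root and between 599 and 707 FPKM in shoot, most of it from PYK10, and that of 10 shoot markers lay between 255 and 275 FPKM in root and between 62023 and 77209 FPKM in shoot. Between 22684 and 22858 genes were listed in a root library and between 21355 and 22477 in a shoot library. The sources used here do not give the number of reads. Steps in the low values put the depth of the other libraries of a tissue at 0.877 to 1.22 times that of Col-0 replicate 1. The median FPKM of the listed genes was 5.76 and 5.87 in mutant shoot, against 3.33 and 5.02 in Col-0 shoot. Among the mutated genes, SAUR72 (chromosome 3, 4078651 to 4079608) was the single member. It had 16.9 and 16.3 FPKM in mutant root against 23.4 and 31.6 FPKM in Col-0 root, and 4.18 and 3.96 FPKM in mutant shoot against 9.41 and 7.57 FPKM in Col-0 shoot. Its values did not overlap between genotypes in either tissue. Its changes were -0.68 in root and -0.90 in shoot, its interaction was 0.21 (SE 0.27, limma adjusted p = 0.612), and the limma adjusted p of the difference was 1 in root and 0.0624 in shoot. SAUR41 and SAUR71 were tested but were no members, and SAUR40 reached 0.099 FPKM at most. SAUR41 had 7.75 and 7.10 FPKM in mutant root against 7.98 and 7.15 FPKM in Col-0 root, and 1.09 and 0.845 FPKM in mutant shoot against 1.21 and 0.745 FPKM in Col-0 shoot, values that overlapped in both tissues. SAUR71 had 0.471 and 0.58 FPKM in mutant root against 0.173 and 0.986 FPKM in Col-0 root, and 3.28 and 3.02 FPKM in mutant shoot against 7.91 and 5.22 FPKM in Col-0 shoot, values that overlapped in root and were lower in the mutant in shoot. Values summed over a gene leave unknown which stretch of a mutated gene was read.

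The genotype difference was small in root and wide in shoot. Across the members its SD was 0.146 in root and 0.521 in shoot, and its median was -0.02 in root and 0.36 in shoot. The shoot median was -0.08 and -0.13 with the median-ratio rescaling within tissue and over all libraries. It was -0.00032 with quantile normalization and -0.03 after removal of the trend on gene span. These scalings, described further on, bring the libraries to a shared level, so a shoot median near 0 follows from them. The shoot median was 0.19 and the SD 0.320 without Col-0 shoot replicate 1, and without replicate 2 they were 0.51 and 0.809. The median interaction was -0.38, with 7939 members below 0 and 1850 above. A difference of at least 1 on the log2 scale was seen in 5 members in root and 1200 in shoot, against 0.11% and 9.85% of all 19985 genes tested. Of those in root, AT2G01020 and AT3G41979 had equal changes in each tissue (-1.14 in root), so their reads may be shared. By limma, 1 member passed an adjusted p of 0.05 in root, where it was higher in the mutant (0.01% of all genes tested, with 0 lower), and 129 passed in shoot (1.02%). The root count rests on a spread shared with the shoot groups, and the Col-0 shoot replicates were far apart. In shoot 123 members were higher (0.961%) and 6 lower (0.06%). This split was 8 higher and 0 lower with the median-ratio rescaling within tissue, 10 and 2 with that over all libraries, 179 and 124 with quantile normalization, and 361 and 197 after removal of the span trend. The 6, listed for their calls rather than by the rule for named genes, were AT2G01422, CML36, AT3G13310, MARD1, IAGLU and LBD37. The shoot count depends on the settings and was between 1 and 558 in the alternatives that kept all libraries.

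**Figure D1:**
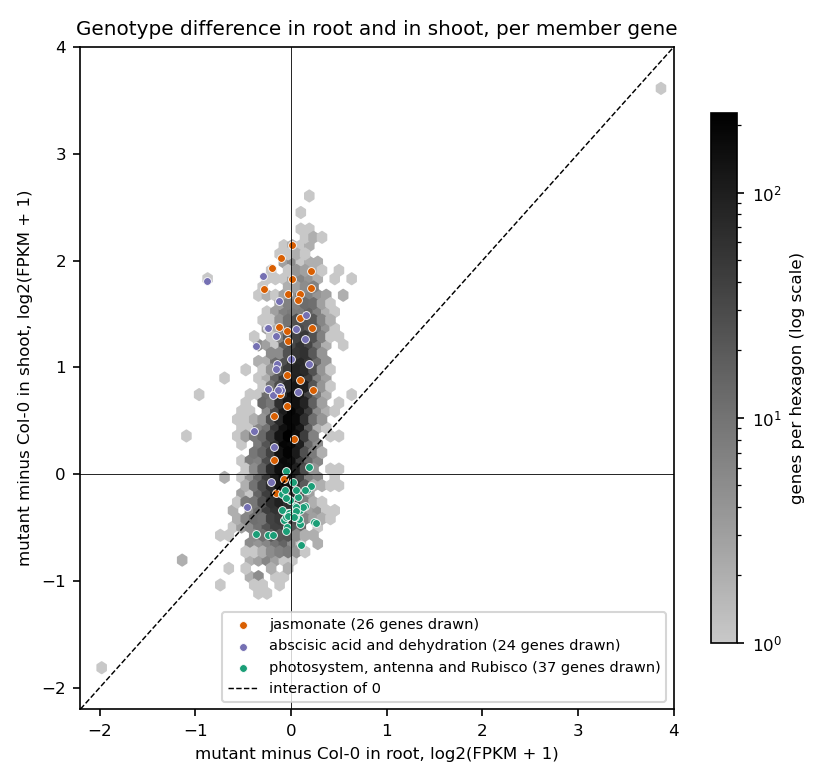
Mutant minus Col-0 difference in root (horizontal) and shoot (vertical) of the members on the log2(FPKM + 1) scale, as counts of genes per hexagon, with 3 gene lists as points and a dashed line where the interaction is 0. The cloud is narrow in root (SD 0.146) and wide in shoot (SD 0.521), with the jasmonate and abscisic acid genes mostly above the line and the photosystem genes below it, while CAB1 and AT3G41768 lie outside the axes.

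No interaction passed the threshold. The count was 0 members, and 0% of all genes tested, in both directions, and the lowest limma adjusted p was 0.247. At an unadjusted p under 0.05, limma found 1601 members, against 15.5% of all genes tested, which was 16.4% of the members. Of these 1502 were negative, against 14.3% of all genes tested, and 99 positive, against 1.2%. The members' shares of 15.3% and 1.01% were near this background. The split into negative and positive was 441 and 455 with the median-ratio rescaling within tissue and 382 and 547 with that over all libraries. It was 614 and 679 with quantile normalization, and 798 and 631 after removal of the span trend. A more even split follows in part from these scalings, which bring the libraries to a shared level.

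The direction of many interactions changed with how the libraries were scaled. The difference of replicate 1 less replicate 2 had an SD over the members of 0.205 in mutant shoot, against 0.656 in Col-0 shoot, and was lower in replicate 1 for 68.1% of members in Col-0 shoot. It had an SD of 0.154 in mutant root, against 0.156 in Col-0 root. When libraries were rescaled by the median ratio of their genes within each tissue, the median interaction of the members was 0.06, with 4424 below 0 and 5365 above. Rescaling over all libraries gave 0.10 (4063 below and 5726 above), quantile normalization within tissue -0.01 (4950 and 4839), and removal of the trend on gene span 0.01 (4781 and 5008). The sign was negative under all 5 of these versions for 3674 members and positive under all for 1803. These scalings bring the libraries to a shared level, so a median near 0 and a more even split follow from them. They cannot show whether the genotypes differed in most genes at once. Because the sign depended on the scaling, the values below are also read against the members' own median.

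**Figure D2:**
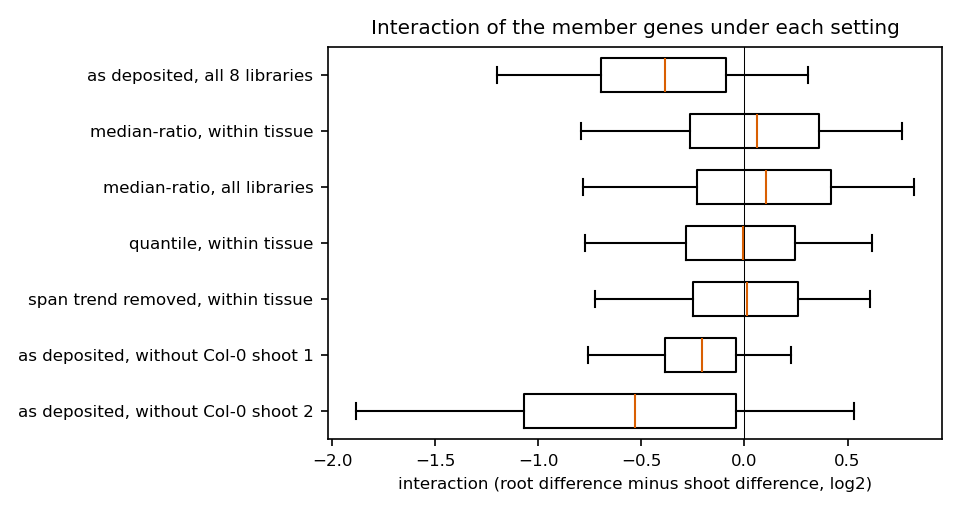
Interaction of the members under each setting, on the log2 scale, as boxes from the lower to the upper quartile, a line at the median and whiskers from the 5th to the 95th percentile. The median is -0.38 as deposited and between -0.01 and 0.10 under the 4 scalings, which bring the libraries to a shared level. It is -0.21 when Col-0 shoot replicate 1 is left out and -0.53 when replicate 2 is.

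The count of interactions turned on the Col-0 shoot libraries. Without Col-0 shoot replicate 1, limma adjusted p-values under 0.05 were found for 1328 members with a negative interaction, against 9.66% of all genes tested, and 48 with a positive one, against 0.726%. Without Col-0 shoot replicate 2 the numbers were 5753 (51.5%) and 895 (6.28%). These settings share every library outside Col-0 shoot, so a member called in both has no separate support. With the median-ratio rescaling and without replicate 1, 207 members were negative (1.56%) and 115 positive (1.05%). Members called in all 3 settings were not compared with a share of all genes tested. In each of them 1 library stands for Col-0 shoot, which is assumed to vary like the other groups, so these calls have no replicate check in that group.

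The 12 members with the lowest interactions, ranked by moderated t because none passed, were AT5G05600, CYP94B1, AT1G61890, TIFY10B, VSP1, DMR6, OPR3, AT5G19230, GSTU5, AT1G53885, AT1G53903 and AT5G54940. All 12 rose in mutant shoot over Col-0 shoot (limma adjusted p 0.0387 to 0.0466) and differed by -0.38 to 0.10 in root. Several act in the synthesis, signalling or breakdown of jasmonate, a hormone made after wounding. The interactions of -2.14 to -1.11 all missed the threshold, with limma adjusted p = 0.247. Without Col-0 shoot replicate 1 their interactions were -1.97 to -1.06. The 12 were chosen as extreme in these same libraries, so this is no separate support for them.

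OPR3 (chromosome 2, 2359114 to 2362302), the peroxisomal reductase of jasmonate synthesis, had 28.8 and 32.3 FPKM in mutant root against 30.5 and 30.0 FPKM in Col-0 root, and 241 and 256 FPKM in mutant shoot against 56.2 and 85.0 FPKM in Col-0 shoot. Both mutant shoot libraries were well above both Col-0 shoot libraries, and the root values of the genotypes overlapped. Its changes were 0.01 in root and 1.83 in shoot (limma adjusted p = 0.0447 in shoot), which gave an interaction of -1.82 (SE 0.27, limma adjusted p = 0.247). AT5G05600 (chromosome 5, 1672120 to 1674739) stood lowest by t. It had 35.5 and 32.5 FPKM in mutant root against 38.0 and 30.0 FPKM in Col-0 root, and 38.9 and 41.9 FPKM in mutant shoot against 7.11 and 9.78 FPKM in Col-0 shoot. Its Col-0 shoot values were far below those of the other groups, which lay close together, and the interaction was -2.14 (SE 0.26, limma adjusted p = 0.247).

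CYP94B1 (chromosome 5, 25408895 to 25410573), a cytochrome P450 that oxidizes the active jasmonate conjugate, had 8.68 and 7.43 FPKM in mutant root against 8.81 and 7.70 FPKM in Col-0 root, and 26.3 and 25.2 FPKM in mutant shoot against 6.89 and 7.80 FPKM in Col-0 shoot. In root the genotypes overlapped, and in shoot they were wide apart. The interaction was -1.72 (SE 0.22, limma adjusted p = 0.247). TIFY10B (chromosome 1, 28148575 to 28150444), also known as JAZ2, a repressor of jasmonate signalling, had 29.3 and 28.8 FPKM in mutant root against 28.3 and 26.1 FPKM in Col-0 root, and 121 and 123 FPKM in mutant shoot against 39.0 and 48.8 FPKM in Col-0 shoot. It was higher in the mutant without overlap in both tissues, though by 0.09 in root and 1.46 in shoot, and its interaction was -1.37 (SE 0.19, limma adjusted p = 0.247). VSP1 (chromosome 5, 8507590 to 8508957), a vegetative storage protein induced by jasmonate, had 14.5 and 12.5 FPKM in mutant root against 14.4 and 19.0 FPKM in Col-0 root, and 14.1 and 18.1 FPKM in mutant shoot against 3.93 and 4.28 FPKM in Col-0 shoot. The shoot values did not overlap, the root values did, and the interaction was -2.02 (SE 0.28, limma adjusted p = 0.247).

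DMR6 (chromosome 5, 8378833 to 8383401), an oxygenase that hydroxylates salicylate and lowers immunity, was several times higher in root than in shoot. It had 73.0 and 70.9 FPKM in mutant root against 81.7 and 77.2 FPKM in Col-0 root, and 15.6 and 16.0 FPKM in mutant shoot against 7.30 and 7.91 FPKM in Col-0 shoot. The mutant was lower without overlap in root and higher without overlap in shoot, with an interaction of -1.11 (SE 0.16, limma adjusted p = 0.247). GSTU5 (chromosome 2, 12624586 to 12625637), a glutathione transferase of the tau class, had 34.4 and 32.9 FPKM in mutant root against 41.8 and 36.7 FPKM in Col-0 root, and 179 and 209 FPKM in mutant shoot against 100.5 and 87.3 FPKM in Col-0 shoot. It too was below Col-0 in both mutant root libraries and above it in both mutant shoot libraries, and its interaction was -1.25 (SE 0.19, limma adjusted p = 0.247). AT5G54940 (chromosome 5, 22308271 to 22309410) was the most abundant of the 12 in root. It had 446 and 499 FPKM in mutant root against 552 and 508 FPKM in Col-0 root, and 249 and 306 FPKM in mutant shoot against 118 and 134 FPKM in Col-0 shoot. The mutant was lower in root and higher in shoot, without overlap in either, with an interaction of -1.30 (SE 0.20, limma adjusted p = 0.247).

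AT1G61890 and AT5G19230 had interactions of -1.72 and -1.61. AT1G53885 and AT1G53903 lie near each other on chromosome 1 and had -1.57 and -1.55. Their values were almost equal in every library, 22.3 and 22.8 FPKM in mutant shoot replicate 1 for example, so reads may be shared between them and they are uncertain as separate results.

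**Figure D3:**
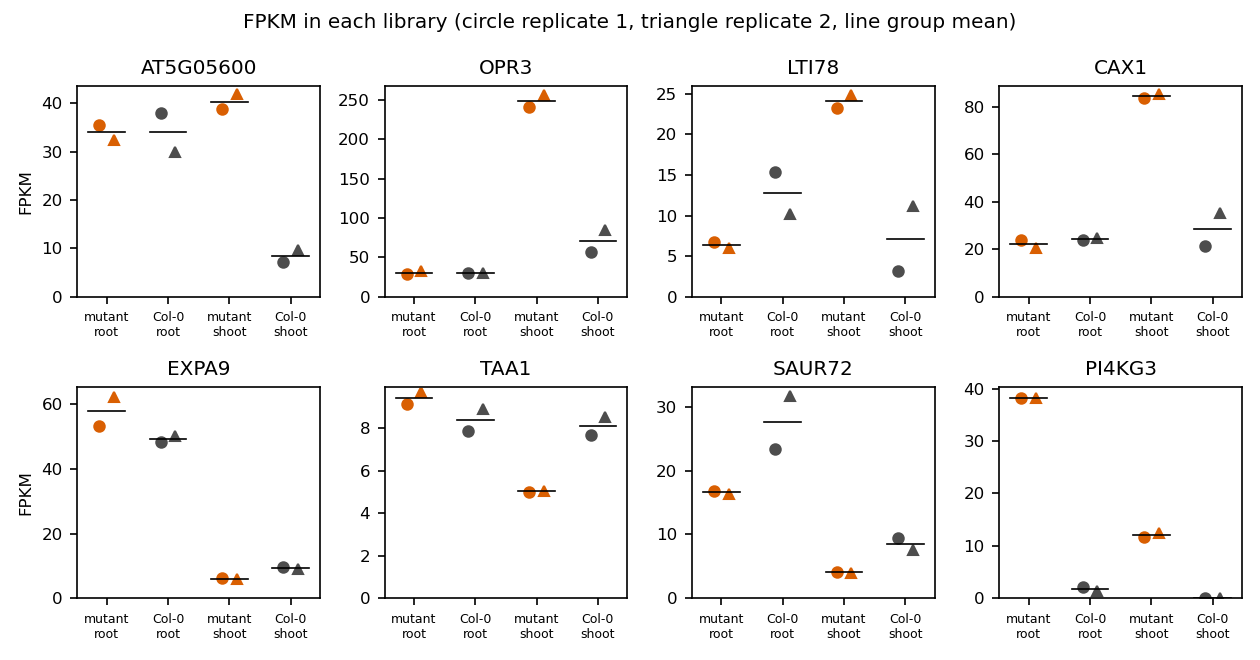
FPKM of 8 members in each library, mutant left of Col-0 within root and within shoot, with replicate 1 as circles, replicate 2 as triangles and a line at the group mean. AT5G05600, OPR3, LTI78 and CAX1 are high in mutant shoot against Col-0 shoot, EXPA9 and TAA1 are low there, and SAUR72 and PI4KG3 differ in the same direction in both tissues.

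The 12 members with the highest interactions by t were IAGLU, MARD1, AT5G11550, PLP9, EXPA9, LBD37, AT1G67750, AT1G23390, TAA1, HB34, AT4G34980 and PYL4. Both mutant shoot values lay below both Col-0 shoot values in all 12, of which 3 fell by limma in shoot, and the root differences were -0.15 to 0.31. Their interactions of 0.54 to 0.90 were smaller in size than those of the 12 lowest. All missed the threshold, with limma adjusted p between 0.255 and 0.283. Without Col-0 shoot replicate 1 their interactions were 0.50 to 0.81, in genes chosen from these same libraries. Auxin synthesis, wall loosening and abscisic acid perception were each represented by 1 gene.

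TAA1 (chromosome 1, 26604855 to 26607503), the aminotransferase that begins the main route of auxin synthesis from tryptophan, had 9.14 and 9.68 FPKM in mutant root against 7.87 and 8.89 FPKM in Col-0 root, and 5.02 and 5.06 FPKM in mutant shoot against 7.68 and 8.53 FPKM in Col-0 shoot. The mutant was higher in root and lower in shoot without overlap, by 0.15 in root and -0.59 in shoot, and the interaction was 0.74 (SE 0.20, limma adjusted p = 0.274). EXPA9 (chromosome 5, 463158 to 465246), an alpha-expansin that loosens the cell wall, had 53.4 and 62.3 FPKM in mutant root against 48.3 and 50.2 FPKM in Col-0 root, and 6.32 and 5.90 FPKM in mutant shoot against 9.74 and 8.92 FPKM in Col-0 shoot. It showed the same pattern, higher in both mutant root libraries and lower in both mutant shoot libraries, with an interaction of 0.76 (SE 0.19, limma adjusted p = 0.269). PYL4 (chromosome 2, 16050063 to 16051168), an abscisic acid receptor, had 154 and 147 FPKM in mutant root against 142 and 143 FPKM in Col-0 root, and 28.5 and 27.0 FPKM in mutant shoot against 53.4 and 38.9 FPKM in Col-0 shoot. Both of its mutant root values lay above Col-0 and both shoot values below, and the interaction was 0.77 (SE 0.22, limma adjusted p = 0.283).

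LBD37 (chromosome 5, 26904289 to 26906026), a repressor of nitrogen-responsive genes, had 148 and 142 FPKM in mutant root against 154 and 159 FPKM in Col-0 root, and 47.2 and 51.1 FPKM in mutant shoot against 79.4 and 75.6 FPKM in Col-0 shoot. The mutant was below Col-0 without overlap in both tissues, by -0.11 in root and -0.65 in shoot (limma adjusted p = 0.0479 in shoot), and the interaction was 0.54 (SE 0.15, limma adjusted p = 0.271). MARD1 (chromosome 3, 23353615 to 23355160), named as a mediator of dormancy regulated by abscisic acid, had 76.6 and 63.1 FPKM in mutant root against 76.4 and 78.5 FPKM in Col-0 root, and 7.32 and 7.82 FPKM in mutant shoot against 15.3 and 15.5 FPKM in Col-0 shoot. Its shoot values were well below Col-0 in the mutant (limma adjusted p = 0.0466 in shoot), its root values overlapped, and the interaction was 0.78 (SE 0.19, limma adjusted p = 0.263). IAGLU (chromosome 4, 8875918 to 8879327) had the highest t, but it shares a merged locus with another gene, so part of its reads may belong there. It had 68.0 and 65.8 FPKM in mutant root against 65.2 and 66.8 FPKM in Col-0 root, and 18.9 and 16.4 FPKM in mutant shoot against 29.7 and 30.7 FPKM in Col-0 shoot. Its shoot values were lower in the mutant without overlap (limma adjusted p = 0.0479 in shoot), and its interaction was 0.76 (SE 0.16, limma adjusted p = 0.255).

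The remaining 6 were close in size. The patatin-like lipase gene PLP9 had an interaction of 0.90 and the homeobox gene HB34 one of 0.67. AT4G34980, which encodes the subtilisin-like protease SLP2, had 0.82. AT5G11550, AT1G23390 and AT1G67750 had 0.90, 0.71 and 0.76.

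Members were also sorted by whether both mutant values lay beyond both Col-0 values. In root 1950 members were higher without overlap and 2588 lower, against 20.5% and 22.9% of all genes tested, and in shoot 5875 were higher and 1046 lower, against 56.8% and 9.48%. In both tissues 1618 members were higher (15.5% of all genes tested) and 469 lower (3.64%). Opposite directions were seen in 942 members that were lower in root and higher in shoot (8.69%) and in 62 that were higher in root and lower in shoot (0.746%). These classes moved with the scaling, and with the median-ratio rescaling within tissue they held 1080, 1272, 234 and 358 members in the same order. The members' own shares in the 4 classes, as deposited, were 16.5%, 4.79%, 9.62% and 0.633%.

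Among genes lower in root and higher in shoot, the 6 with the largest smaller change were LTI78, CML30, FBS1, AT2G22880, AT5G22270 and AT1G05575. LTI78 (chromosome 5, 21240849 to 21243613), also called RD29A and induced by cold and drought, had 6.69 and 6.04 FPKM in mutant root against 15.3 and 10.2 FPKM in Col-0 root, and 23.3 and 24.9 FPKM in mutant shoot against 3.19 and 11.2 FPKM in Col-0 shoot. Its mutant root values lay below both Col-0 root values, and its mutant shoot values were the highest of all 8 libraries. Its changes were -0.88 in root and 1.81 in shoot and its interaction was -2.69 (SE 0.65, limma adjusted p = 0.267). It was -1.93 without Col-0 shoot replicate 1, whose value was far below that of replicate 2. CML30 (chromosome 3, 11005779 to 11006414), a calmodulin-like gene, had 14.5 and 33.9 FPKM in mutant root against 50.7 and 38.8 FPKM in Col-0 root, and 4.92 and 8.80 FPKM in mutant shoot against 3.69 and 3.22 FPKM in Col-0 shoot. The mutant root replicates were themselves far apart, and the interaction was -1.74 (SE 0.58, limma adjusted p = 0.293), with adjusted p = 0.224 without Col-0 shoot replicate 1. FBS1, an F-box gene induced by stress, had 23.4 and 37.7 FPKM in mutant root against 44.5 and 40.5 FPKM in Col-0 root, and 48.3 and 76.8 FPKM in mutant shoot against 41.4 and 38.3 FPKM in Col-0 shoot, and an interaction of -1.10 (SE 0.39, limma adjusted p = 0.3). AT2G22880, AT5G22270 and AT1G05575 had interactions of -1.41, -1.18 and -1.06. Without Col-0 shoot replicate 1 the interactions of the 6 were -1.93 to -1.12.

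Among genes higher in root and lower in shoot, the 6 by the same rule were AT1G67750, GLP10, KDR, AT5G62210, AT3G08600 and AT3G63540. KDR (chromosome 1, 9351454 to 9352761), a helix-loop-helix gene of the PRE family that promotes elongation, had 8.41 and 9.40 FPKM in mutant root against 6.31 and 7.35 FPKM in Col-0 root, and 12.6 and 11.1 FPKM in mutant shoot against 17.5 and 15.1 FPKM in Col-0 shoot. The genotypes did not overlap in either tissue, with changes of 0.34 in root and -0.42 in shoot and an interaction of 0.76 (SE 0.23, limma adjusted p = 0.283). AT1G67750 (chromosome 1, 25401588 to 25403503) had 11.2 and 11.03 FPKM in mutant root against 9.28 and 8.34 FPKM in Col-0 root, and 15.1 and 13.0 FPKM in mutant shoot against 20.6 and 18.8 FPKM in Col-0 shoot. Its interaction was 0.76 (SE 0.21, limma adjusted p = 0.271). GLP10, a germin-like gene that shares a merged locus, had an interaction of 0.81, and AT5G62210, AT3G08600 and AT3G63540 had 0.71, 0.67 and 0.80. All 6 missed the threshold, and their interactions were 0.49 to 0.70 without Col-0 shoot replicate 1.

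Few members differed by a large amount in both tissues. PI4KG3 (chromosome 5, 8228892 to 8234652), named as a phosphatidylinositol 4-kinase of the gamma type, had 38.3 and 38.2 FPKM in mutant root against 2.23 and 1.36 FPKM in Col-0 root, and 11.8 and 12.4 FPKM in mutant shoot against 0.065 and 0.0445 FPKM in Col-0 shoot. It rose in both tissues, by 3.83 in root (SE 0.18, limma adjusted p = 0.00276) and 3.63 in shoot (SE 0.18, limma adjusted p = 0.00396). It was nearly absent from Col-0 shoot and clear in every mutant library. Its merged locus holds 3 genes, so the values may include reads of a neighbour. In root it lost the call when either mutant root library was left out (adjusted p = 0.086 and 0.172), and in shoot it lost the call without either mutant shoot library (0.156 and 0.0602) or without either mutant root library (0.0761 and 0.0767).

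AT2G01422 (chromosome 2, 183940 to 184734), which gives a non-coding RNA and lies next to the auxin transport gene PIN4, had 8.78 and 11.2 FPKM in mutant root against 42.6 and 41.6 FPKM in Col-0 root, and 6.59 and 7.56 FPKM in mutant shoot against 31.6 and 24.9 FPKM in Col-0 shoot. It was several times lower in every mutant library, with changes of -1.98 in root and -1.85 in shoot. In shoot it fell by limma (adjusted p = 0.0387), and in root its adjusted p was 0.0819. PIN4 itself was higher in the mutant in root, by 0.32, and had 13.95 and 15.7 FPKM in mutant root, against 10.98 and 12.4 FPKM in Col-0 root.

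The other genes lower in both tissues without overlap were GRP3S, SAUR72, AT4G27657, AT3G04640 and ERF5. ERF5, an ethylene response factor, had 35.4 and 38.8 FPKM in mutant root against 53.0 and 52.0 FPKM in Col-0 root, and 25.8 and 42.7 FPKM in mutant shoot against 65.8 and 47.5 FPKM in Col-0 shoot. Its changes were -0.49 in root and -0.73 in shoot. GRP3S, a glycine-rich protein gene, differed by -0.74 in root and -0.99 in shoot. AT4G27657 differed by -0.67 in root and -0.59 in shoot and AT3G04640 by -0.73 in root and -0.58 in shoot. The other genes higher in both were AT2G37540 (0.66 in root and 0.78 in shoot), AT3G54500 (0.59 in root and 1.85 in shoot), AT5G25560 (0.59 in root and 1.68 in shoot), AT4G36980 (0.53 in root and 1.71 in shoot) and AT4G08035 (0.53 in root and 1.19 in shoot). AT3G54500 encodes LNK2, a co-activator of the circadian clock, and shares a merged locus, as does AT2G37540. It had 104 and 109 FPKM in mutant shoot, against 13.6 and 59.8 FPKM in Col-0 shoot, so its Col-0 shoot replicates were far apart. AT4G36980 had 16.2 and 18.1 FPKM in mutant shoot, against 2.02 and 9.15 FPKM in Col-0 shoot, and AT4G08035 had 8.26 and 9.35 FPKM in mutant shoot, against 1.67 and 5.90 FPKM in Col-0 shoot. AT5G25560 averaged 22.9 ± 0.403 FPKM in mutant shoot and 8.35 ± 7.98 FPKM in Col-0 shoot (SD, n = 2 each), with 2.71 FPKM in Col-0 shoot replicate 1. The Col-0 shoot replicates of these 3 genes were again far apart, with replicate 1 the lower. When that library was left out, the shoot changes were 0.82 for AT3G54500, 0.67 for AT5G25560, 0.84 for AT4G36980 and 0.51 for AT4G08035. None of these 10 passed limma in either tissue.

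Lists of genes written from general knowledge placed 788 members in 40 groups. A list is described by its median interaction and by how many members lay below or above the members' median of -0.38. The lists at the lower end were mostly hormone and stress responses, ion transport, the clock, light-controlled growth and cellulose synthesis. Those at the upper end were genes of photosynthesis, chromatin, the cytoskeleton, water transport and other wall genes. Lists also differed in gene span. The median span was 956 base pairs for histones, 1709 for expansins and 4196 for calcium and sodium transport, against 2596 over all members. It was 2238.5 for the low jasmonate list. Whether the order of the lists follows from span was not tested.

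**Figure D4:**
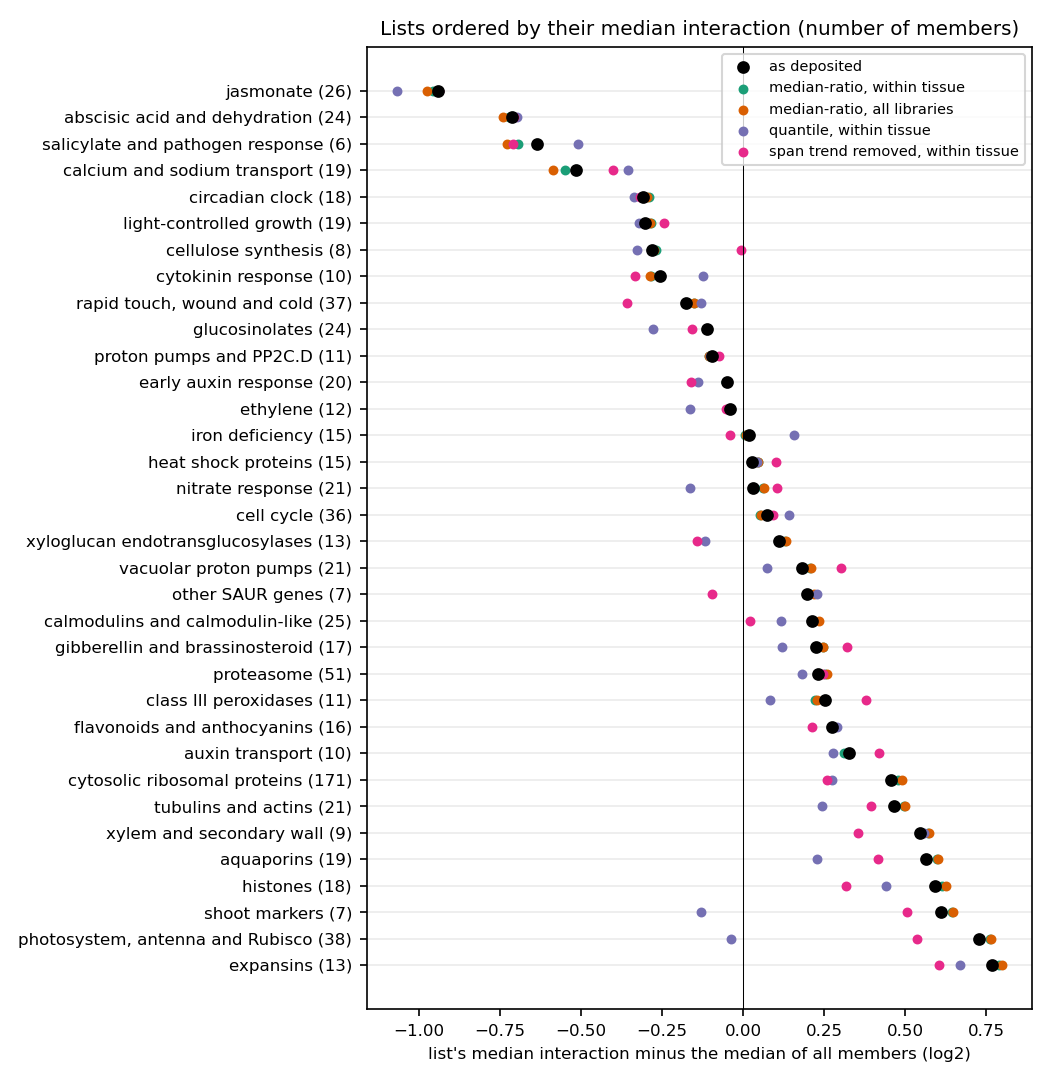
Median interaction of each list with at least 5 members, minus the median of all members, on the log2 scale, with black points for the deposited values and coloured points for the 4 scalings. The jasmonate list lies lowest (-0.94 as deposited) and the expansin list highest (0.77); the photosystem list lies at 0.73 as deposited and at -0.04 after quantile normalization.

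The jasmonate list had 26 members with a median interaction of -1.33, and a median change of -0.04 in root and 1.35 in shoot. It lay below the members' median for 21 of the 26 and above for 5. None passed, 16 had an unadjusted p under 0.05 with a negative interaction (14.3% of all genes tested), and 0 had one with a positive interaction (1.2%). Without Col-0 shoot replicate 1, 16 of the 26 passed, all negative, where 13.6% of all members did. Relative to the members' median the list stood at -0.94, between -1.07 and -0.94 under the 4 scalings, and at -0.76 without that library. Beside the genes above, IAR3, an amidohydrolase that cleaves jasmonate and auxin conjugates, had 51.3 and 51.2 FPKM in mutant root against 54.3 and 56.3 FPKM in Col-0 root, and 40.6 and 47.5 FPKM in mutant shoot against 7.31 and 13.6 FPKM in Col-0 shoot. Its root values were slightly lower in the mutant, its shoot values were several times apart, and its interaction was -2.13 (SE 0.36, limma adjusted p = 0.247). AOC3, an allene oxide cyclase of jasmonate synthesis, had an interaction of -2.13 (SE 0.35, limma adjusted p = 0.247).

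The abscisic acid and dehydration list had 24 members with a median interaction of -1.10, of which 22 lay below the members' median and 2 above. Of the 24, 14 had an unadjusted p under 0.05, all negative, as 14.3% of all genes tested had. In shoot both mutant values were above both Col-0 values in 22 of the 24, against 56.8% of all genes tested. In root 10 were lower without overlap and 3 higher, against 22.9% and 20.5%. HAI1 (chromosome 5, 23894404 to 23896619), a phosphatase of abscisic acid signalling, had 5.01 and 5.43 FPKM in mutant root against 6.06 and 5.51 FPKM in Col-0 root, and 15.3 and 16.3 FPKM in mutant shoot against 3.61 and 5.43 FPKM in Col-0 shoot. The shoot values were far apart, the root values were slightly lower in the mutant, and the interaction was -1.75 (SE 0.27, limma adjusted p = 0.247). The dehydrin gene ERD10 had 182 and 186 FPKM in mutant root against 263 and 192 FPKM in Col-0 root, and 143 and 168 FPKM in mutant shoot against 26.8 and 65.7 FPKM in Col-0 shoot. Its mutant root values were below both Col-0 root values while its mutant shoot values were above both Col-0 shoot values, with an interaction of -2.15 (SE 0.54, limma adjusted p = 0.269). COR47, another dehydrin gene, had an interaction of -1.61 (SE 0.33, limma adjusted p = 0.249). Relative to the members' median the list stood between -0.74 and -0.70 under the 4 scalings and at -0.57 without Col-0 shoot replicate 1.

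The salicylate and pathogen response list had 6 members, all below the members' median, with a median interaction of -1.02. The salicylate receptor genes NPR3 and NPR4 had interactions of -1.46 and -0.85, and the immune regulators EDS1 and SAG101 had -1.44 and -1.19. The list stood at -0.64 relative to the members' median and between -0.73 and -0.51 under the 4 scalings. Without Col-0 shoot replicate 1 it stood at -0.38, and its median interaction was -0.58. None passed with all libraries.

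The calcium and sodium transport list had 19 members, 18 of them below the members' median, with a median interaction of -0.90. In shoot all 19 were higher in the mutant without overlap, as were 56.8% of all genes tested. CAX1 (chromosome 2, 15989083 to 15993278), a vacuolar calcium exchanger, had 23.8 and 20.4 FPKM in mutant root against 23.8 and 24.7 FPKM in Col-0 root, and 83.5 and 85.4 FPKM in mutant shoot against 21.5 and 35.4 FPKM in Col-0 shoot. The 2 mutant shoot libraries lay well above all the others, and the interaction was -1.71 (SE 0.31, limma adjusted p = 0.247). The calcium pump genes AT1G27770 (ACA1) and ACA11 had interactions of -1.71 and -1.51, and the calcium sensor gene CBL1 had -1.56. Its median relative to the members was -0.52 as deposited, between -0.59 and -0.35 under the scalings, and -0.12 without Col-0 shoot replicate 1, so that library moved it by more than it moved the jasmonate list.

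The circadian clock list (18 members) had a median interaction of -0.69, as did the list of light-controlled growth (19 members). Of these 15 and 14 lay below the members' median. The clock repressor genes TOC1 and PRR7 had interactions of -1.34 and -1.30. PRR7 had 23.61 and 25.5 FPKM in mutant shoot, against 3.51 and 18.0 FPKM in Col-0 shoot, so its Col-0 replicates were as far apart as the genotypes. The genes SPA1, SPA2, SPA3 and SPA4, which encode partners of the light-signalling ligase COP1, had interactions of -1.10, -1.15, -1.13 and -1.14. SPA3 and SPA4 share a merged locus with a neighbour. All 4 had their lowest shoot value in Col-0 shoot replicate 1, such as 41.8 and 37.7 FPKM in mutant shoot, against 8.39 and 34.5 FPKM in Col-0 shoot for SPA1. Without that library the light list stood at 0.07 relative to the members' median, against -0.30 with it, and the clock list at -0.11, against -0.31.

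The cytokinin response list (10 members) had a median interaction of -0.64. Its response regulator gene ARR7 had 38.6 and 49.9 FPKM in mutant root against 59.1 and 46.1 FPKM in Col-0 root, and 18.0 and 25.1 FPKM in mutant shoot against 6.27 and 7.56 FPKM in Col-0 shoot. The mutant was higher in shoot without overlap, and the interaction was -1.74 (SE 0.32, limma adjusted p = 0.247). The cytokinin receptor genes HK2 and HK3 had -1.34 and -1.24. The early auxin response list (20 members) had a median of -0.43, with 12 below and 8 above the members' median. The auxin repressor genes IAA2, IAA18 and SHY2 had interactions of -1.47, -1.34 and -0.95. The gibberellin and brassinosteroid list (17 members) had a median of -0.16, with 13 above the members' median. It held both directions, with -1.42 for GA2OX6, which inactivates gibberellin, and 0.39 for GAI, a repressor of gibberellin response. The auxin transport list (10 members) had a median of -0.06, with 9 above the members' median. The ethylene list (12 members) had -0.43, and relative to the members' median it stood at -0.04, and at 0.13 without Col-0 shoot replicate 1.

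The list of rapid touch, wound and cold genes held 37 members on both sides, 19 below and 18 above the members' median. WRKY18 (chromosome 4, 15383201 to 15385029), which encodes a regulator of pathogen responses, had 13.3 and 18.9 FPKM in mutant root against 18.0 and 12.6 FPKM in Col-0 root, and 32.0 and 52.1 FPKM in mutant shoot against 5.86 and 9.23 FPKM in Col-0 shoot. The shoot values did not overlap and the root values did, with an interaction of -2.25 (SE 0.46, limma adjusted p = 0.25). The calmodulin-like gene TCH3 had 28.2 and 35.8 FPKM in mutant root against 37.1 and 26.4 FPKM in Col-0 root, and 313 and 468 FPKM in mutant shoot against 79.7 and 133 FPKM in Col-0 shoot, and an interaction of -1.86 (SE 0.44, limma adjusted p = 0.263). CBF2, a transcription factor of cold acclimation, lay on the other side. It had 11.9 and 17.2 FPKM in mutant root against 15.7 and 19.3 FPKM in Col-0 root, and 36.3 and 49.5 FPKM in mutant shoot against 99.9 and 79.6 FPKM in Col-0 shoot. Its mutant shoot values were below both Col-0 shoot values, and the interaction was 0.79 (SE 0.34, limma adjusted p = 0.323). In root 20 of the 37 were lower in the mutant without overlap and 1 higher, against 22.9% and 20.5% of all genes tested. The sugar transporter-like gene ERD6 had an interaction of -1.85. Without Col-0 shoot replicate 1 the list's median relative to the members was -0.33, against -0.18 with that library.

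The calmodulin list (25 members) was mixed in the same way, with a median of -0.17. CML36 (chromosome 3, 3155298 to 3156143) had 33.0 and 32.1 FPKM in mutant root against 44.2 and 44.6 FPKM in Col-0 root, and 3.53 and 3.72 FPKM in mutant shoot against 8.31 and 8.06 FPKM in Col-0 shoot. It was lower in every mutant library than in Col-0 of the same tissue, fell in shoot, with a log2 change of -0.99 (limma adjusted p = 0.0452), and had an interaction of 0.55 (SE 0.18, limma adjusted p = 0.285). CML49 had an interaction of -1.22. In root 15 of the 25 were lower without overlap and 0 higher, against 22.9% and 20.5% of all genes tested. Relative to the members' median the list stood at 0.21, and at -0.15 without Col-0 shoot replicate 1.

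Wall genes divided by family. The expansin list (13 members) had the highest median interaction of the 40 lists, 0.38, with 11 above the members' median. Median changes were -0.02 in root and -0.40 in shoot. In mutant shoot 10 of the 13 were lower without overlap, against 9.48% of all genes tested. EXPA1 had 23.2 and 24.0 FPKM in mutant root against 22.1 and 26.1 FPKM in Col-0 root, and 95.3 and 83.6 FPKM in mutant shoot against 139.8 and 134 FPKM in Col-0 shoot. The shoot values were lower in the mutant, and the interaction was 0.59 (SE 0.18, limma adjusted p = 0.283). EXPB1, a beta-expansin gene, had 0.69. The expansin-like gene EXLA1 went the other way, with 28.7 and 29.6 FPKM in mutant shoot, against 7.32 and 8.24 FPKM in Col-0 shoot, and an interaction of -1.70 (SE 0.28, limma adjusted p = 0.247), although it shares a merged locus. Relative to the members' median the list stood between 0.61 and 0.80 under the scalings and at 0.44 without Col-0 shoot replicate 1.

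The xyloglucan endotransglucosylase list (13 members), whose enzymes cut and rejoin wall polymers, had a median of -0.27. XTH18 (chromosome 4, 14825808 to 14827047) had 97.8 and 91.4 FPKM in mutant root against 97.8 and 74.5 FPKM in Col-0 root, and 40.8 and 65.4 FPKM in mutant shoot against 11.01 and 11.3 FPKM in Col-0 shoot. Both mutant shoot values were several times the Col-0 shoot values, and the interaction was -1.97 (SE 0.33, limma adjusted p = 0.247). XTR6 had -1.37. The list's median relative to the members was 0.11 as deposited, -0.12 and -0.14 after quantile normalization and removal of the span trend, and -0.24 without Col-0 shoot replicate 1. The cellulose synthesis list (8 members) had -0.66, and its median span was 5512.5 base pairs. Relative to the members' median it stood at -0.28, and at 0.11 without Col-0 shoot replicate 1. After removal of the span trend it stood at -0.0046, and under the other scalings between -0.33 and -0.27. The list of xylem and secondary wall genes (9 members) had a median interaction of 0.16. In the xylem list all 9 lay above the members' median. In mutant root 6 were higher without overlap, against 20.5% of all genes tested. The laccase gene LAC11, which shares a merged locus, and the xylem genes RNS3 and TED7 had interactions of 0.47, 0.57 and 0.50. RNS3 had 36.9 and 42.0 FPKM in mutant root against 23.0 and 33.7 FPKM in Col-0 root, and 6.25 and 6.83 FPKM in mutant shoot against 7.17 and 6.80 FPKM in Col-0 shoot, so the genotypes differed in root and overlapped in shoot. TED7 had 49.9 and 55.4 FPKM in mutant root, against 32.2 and 49.98 FPKM in Col-0 root, where the genotypes overlapped.

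The proton pump and PP2C.D list (11 members), the phosphatases that SAUR proteins inhibit and the pumps they act on, had a median interaction of -0.48. All 11 were below 0, as were 81.1% of all members, and 7 were below the members' median. The list stood at -0.10 relative to the members' median. Without Col-0 shoot replicate 1 it stood at -0.0054, and its median interaction was -0.21. Under the 4 scalings, with all libraries, its median interaction was between -0.11 and -0.0012. Relative to the members' median it stood between -0.11 and -0.07 there. PP2C6 had 19.2 and 22.8 FPKM in mutant root against 23.7 and 21.4 FPKM in Col-0 root, and 21.8 and 23.59 FPKM in mutant shoot against 7.98 and 12.5 FPKM in Col-0 shoot. In root its values overlapped, in shoot they did not, and the interaction was -1.20 (SE 0.30, limma adjusted p = 0.269). The 7 members among the other SAUR genes all lay above the members' median, with a list median of -0.19. AT4G34760, known as SAUR50, had 15.5 and 18.9 FPKM in mutant root against 18.0 and 21.8 FPKM in Col-0 root, and 9.49 and 6.22 FPKM in mutant shoot against 17.7 and 12.2 FPKM in Col-0 shoot. The genotypes overlapped in root, the mutant was lower in shoot, and the interaction was 0.65 (SE 0.36, limma adjusted p = 0.355). AT3G60690 (SAUR59) had 0.33. In root 5 of the 7 were lower in the mutant without overlap and in shoot 4 were, against 22.9% and 9.48% of all genes tested. Removal of the span trend put the list at -0.10 relative to the members' median, against 0.20 as deposited.

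The photosystem, antenna and Rubisco list had 38 members with a median interaction of 0.35, of which 37 lay above the members' median. The median change was 0.03 in root and -0.34 in shoot. In shoot 22 were lower in the mutant without overlap and 0 higher, against 9.48% and 56.8% of all genes tested. LHCB2.1, an antenna protein gene, had 8.92 and 11.1 FPKM in mutant root against 9.29 and 7.15 FPKM in Col-0 root, and 4092 and 3650.4 FPKM in mutant shoot against 6253 and 4522 FPKM in Col-0 shoot. The shoot values were lower in the mutant without overlap and the interaction was 0.72 (SE 0.29, limma adjusted p = 0.316). LHB1B2 and PSBR, which each share a merged locus, had 0.77 and 0.69. The list kept its place under 3 scalings (0.54 to 0.77 relative to the members' median) and lost it under quantile normalization (-0.04). Its median interaction was 0.09 without Col-0 shoot replicate 1, or 0.30 relative to the members' median, against 0.73 with that library. CAB1, the exception below the median, was listed at 0 in Col-0 shoot replicate 1 and at 15861 FPKM or more in the other shoot libraries, so its interaction of -6.80 rests on an absent value and was 0.39 without that library.

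The cytosolic ribosomal protein list was the largest, with 171 members. Its median interaction was 0.07, its median changes were -0.11 in root and -0.20 in shoot, and 168 of the 171 lay above the members' median. In root 106 were lower in the mutant without overlap and 1 higher, against 22.9% and 20.5% of all genes tested. In shoot 50 were lower and 7 higher, against 9.48% and 56.8%. RPP3B had 187 and 243 FPKM in mutant root against 219 and 291 FPKM in Col-0 root, and 45.4 and 42.9 FPKM in mutant shoot against 104 and 87.4 FPKM in Col-0 shoot. Its root values overlapped, its shoot values were lower in the mutant, and its interaction was 0.85 (SE 0.27, limma adjusted p = 0.285). RPS19B had 0.80. Relative to the members' median the list stood at 0.46, between 0.26 and 0.49 under the scalings, and at 0.05 without Col-0 shoot replicate 1, so its distance from the other members rested on that library.

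Histones (18 members, median 0.21), aquaporins (19 members, 0.18), and tubulins and actins (21 members, 0.08) lay above the members' median for 17, 19 and 21 of their members. HTA11, a histone H2A variant gene, had 33.9 and 33.8 FPKM in mutant root against 31.4 and 38.7 FPKM in Col-0 root, and 20.7 and 22.9 FPKM in mutant shoot against 40.2 and 26.4 FPKM in Col-0 shoot. The mutant shoot values were below both Col-0 shoot values, the root values overlapped, and the interaction was 0.52 (SE 0.30, limma adjusted p = 0.359). H2AXA had 0.43. Among aquaporin genes, PIP2;4 had 46.5 and 49.6 FPKM in mutant root against 42.3 and 35.1 FPKM in Col-0 root, and 5.78 and 4.84 FPKM in mutant shoot against 6.38 and 6.38 FPKM in Col-0 shoot. The mutant was higher in root and lower in shoot without overlap, with an interaction of 0.54 (SE 0.22, limma adjusted p = 0.317). TIP2 and DELTA-TIP, of which DELTA-TIP shares a merged locus, had 0.61 and 0.53. TUA4, an alpha-tubulin gene, had 348 and 356 FPKM in mutant root against 343 and 348 FPKM in Col-0 root, and 326 and 321 FPKM in mutant shoot against 497 and 405 FPKM in Col-0 shoot. Its root values were close in all 4 libraries, its shoot values were lower in the mutant, and its interaction was 0.50 (SE 0.17, limma adjusted p = 0.293). TUA2, which shares a merged locus, had 0.51. Without Col-0 shoot replicate 1 the lists stood at 0.12, 0.20 and 0.24 relative to the members' median, against 0.59, 0.57 and 0.47 with it.

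Glucosinolate genes (24 members) had a median of -0.49. Of these 13 had a negative interaction at an unadjusted p under 0.05, against 14.3% of all genes tested. Their regulator gene MYB34 had 81.6 and 72.6 FPKM in mutant root against 77.2 and 80.9 FPKM in Col-0 root, and 61.0 and 56.3 FPKM in mutant shoot against 19.1 and 25.8 FPKM in Col-0 shoot, and an interaction of -1.40 (SE 0.22, limma adjusted p = 0.247). IGMT1, a methyltransferase gene of indole glucosinolates, had -1.14. Nitrate response genes (21 members) had a median of -0.35, with -1.45 and -1.40 for the scaffold protein genes BT2 and BT1, against 0.54 for LBD37. Iron deficiency genes (15 members) had a median of -0.37, with -1.24 for the metal chelate transporter gene YSL3. Cell cycle genes (36 members) had a median of -0.31, with 0.67 for TSO2, a subunit of ribonucleotide reductase. Flavonoid genes (16 members) had -0.11, class III peroxidases (11 members) -0.13, proteasome genes (51 members) -0.15, vacuolar proton pumps (21 members) -0.20 and heat shock proteins (15 members) -0.36. None of the members of any list passed the interaction test with all libraries.

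The interaction varied with gene span, the distance from start to end of the deposited locus, which the choice of members did not use. Across the 9789 members, which share the same 8 libraries, Spearman's rho of the interaction with span was -0.47. The median interaction was -0.05 in the quintile with the shortest genes (median span 1277 base pairs), -0.26, -0.39 and -0.52 in the next 3, and -0.68 in the quintile with the longest (5371 base pairs). The genotype difference itself had a rho with span of 0.55 in root and 0.56 in shoot. The difference of Col-0 shoot replicate 1 less replicate 2 had a rho of -0.65 with span, against -0.10 in mutant shoot, -0.13 in mutant root and 0.02 in Col-0 root. Without Col-0 shoot replicate 1 the median interaction lay between -0.22 and -0.19 in all 5 quintiles, and without replicate 2 it was 0.10 in the shortest and -1.16 in the longest.

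**Figure D5:**
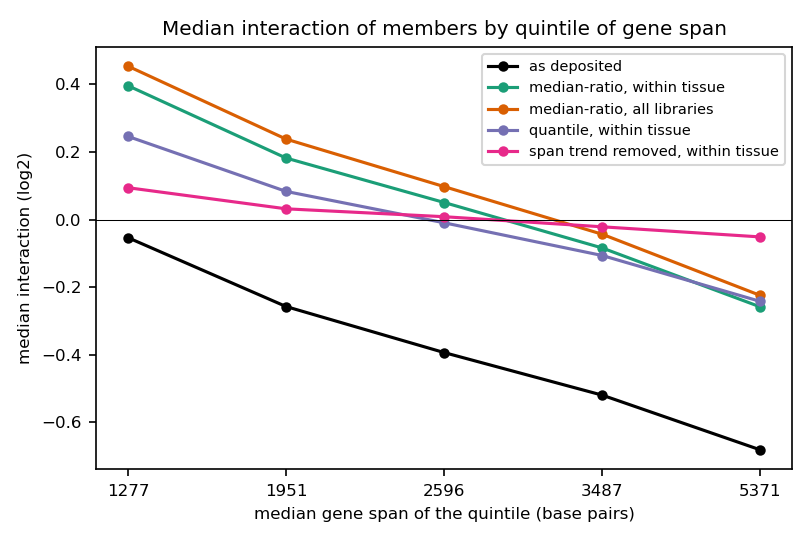
Median interaction of the members (log2) in quintiles of gene span, as deposited and under the 4 scalings. As deposited it is -0.05 in the shortest quintile and -0.68 in the longest, and after removal of the span trend 0.09 and -0.05.

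After removal of the span trend within each tissue the rho with span was -0.11, and the 12 lowest interactions still lay between -1.85 and -0.54 and the 12 highest between 0.78 and 1.25. None of these passed in that setting, with limma adjusted p from 0.0993 upward. The rho of the interaction with mean level was 0.31 as deposited and 0.08 after quantile normalization. In all, 1591 members (16.3%) share a merged locus with another gene and are uncertain to that extent. AT3G41768, at 0 in 3 of the 4 shoot libraries, and CAB1 were the members not listed in every library, and 9787 were listed in all 8.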

How the data were processed

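Expression was measured by RNA sequencing in 8 libraries, 2 for each combination of genotype and tissue. The authors deposited 1 table of FPKM values per library, and the submitters' processing notes name the TAIR10 genome build. The aligner, the quantifier and the strandedness of the libraries were not given in the sources used here. Gene names came from the deposited tables and, for reading lists by symbol, from a RefSeq TAIR10.1 table that lacked 256 of the 25397 gene IDs. Coordinates are those of the deposited loci, some of which merge neighbouring genes.

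Genes with a mean of at least 1 FPKM over the 4 root or the 4 shoot libraries were tested on log2(FPKM + 1) with limma 3.58.1 in R 4.3.3. The model had 4 groups and left 4 residual degrees of freedom. Moderation used a trend and robust variances, and p-values were adjusted by Benjamini-Hochberg over all 19985 genes tested, with a threshold of 0.05. The pseudocount of 1 understates changes of low genes. The FPKM values give no counts, so no count model was used. Summaries used Python 3.11.15 with pandas 2.3.3 and scipy 1.17.1. The fit was also run on simulated data, which had the spread of the root libraries in every group. That run does not cover the wider spread of the Col-0 shoot libraries.

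The named genes were the 12 highest and 12 lowest interactions, the 6 in each opposite and each shared direction without overlap whose smaller change was largest, the mutated genes, and up to 4 members of each list farthest from the median interaction. The members, the lists and the rule for named genes were chosen with earlier results of these data known. The lists held 1447 loci, of which 788 were members, and 34 names on them were not resolved. Alternatives were the pseudocounts 0.1 and 0.5, no filter, testing the members alone, 4 other scalings, moderation without a trend, a replicate block and each library left out. Those for the root and shoot differences and for the members' median were added after seeing the data.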

Additional observations from a re-analysis of the deposited data

Results flagged for a closer look

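The 12 members named for opposite directions were chosen by a rule. It asks that every mutant library lie on one side of Col-0 in root and on the other side in shoot. Of these, 6 were higher in mutant root and lower in mutant shoot, with interactions of 0.76 for AT1G67750, 0.81 for GLP10, 0.76 for KDR, 0.71 for AT5G62210, 0.67 for AT3G08600 and 0.80 for AT3G63540. The other 6 were lower in mutant root and higher in mutant shoot, with -2.69 for LTI78, -1.74 for CML30, -1.10 for FBS1, -1.41 for AT2G22880, -1.18 for AT5G22270 and -1.06 for AT1G05575. The test of the difference between tissues, the interaction by limma, missed the threshold for all 12. Lower in root and higher in shoot were 9.62% of members, against 8.69% of all genes tested. Higher in root and lower in shoot were 0.633%, against 0.746%, so both shares were near the background.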

How the results depend on the processing

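No interaction passed under any alternative that kept all libraries. When each library was left out in turn, 0 to 6648 members passed, and 322 passed with the median-ratio rescaling within tissue and without Col-0 shoot replicate 1. The root difference, with 1 call among the members, had 2 after removal of the span trend, 0 to 4 with a library left out and 3 with the median-ratio rescaling less Col-0 shoot replicate 1. The shoot difference, with 129 calls, had 1 and 27 with pseudocounts of 0.1 and 0.5, 4 without the filter, 223 with the members alone, 8 and 12 with the median-ratio rescaling within tissue and over all libraries, 303 with quantile normalization, 558 after removal of the span trend, 4 without the trend in moderation, 0 to 7522 with a library left out and 1762 with the median-ratio rescaling less Col-0 shoot replicate 1. The labels do not say whether the replicate numbers pair the samples. Correlations of deviations between groups were -0.19 to 0.21, which cannot settle it. With a replicate block, 0 interactions passed and 1492 had an unadjusted p under 0.05, and the shoot difference had 1 call, also with the block and the median-ratio rescaling. The members' median interaction, -0.38, was 0.059, 0.10, -0.0051 and 0.012 under the 4 scalings, which bring the libraries to a shared level. It was -0.53 to -0.21 with a library left out (-0.21 without Col-0 shoot replicate 1). With the median-ratio rescaling it was 0.023 less Col-0 shoot replicate 1 and 0.059 with the block. Under the scalings and relative to the members' median, lists with at least 5 members changed sign for iron deficiency (-0.041 without the span trend), nitrate response (-0.16 with quantiles), other SAUR genes (-0.10 without the span trend), photosystems (-0.038 with quantiles), shoot markers (-0.13 with quantiles) and xyloglucan enzymes (-0.12 with quantiles and -0.14 without the span trend). Under the scalings, taken as median-ratio within tissue, median-ratio over all libraries, quantile and span trend, members higher in root and lower in shoot numbered 358, 382, 381 and 355, those lower in root and higher in shoot 234, 187, 246 and 342, and those lower in both 1272, 1455, 964 and 949. Members higher in both numbered 904 with the median-ratio rescaling over all libraries (9.87% of all genes tested) and 649 after removal of the span trend (7.11%). Among the interactions printed for named genes, CAB1 changed sign without Col-0 shoot replicate 1 (0.39, within a range of -13.98 to 0.39 over the libraries left out) and, with the median-ratio rescaling added, so did CAB1 (0.64), SPA1 (0.10) and SPA3 (0.015). The interactions of the 12 genes named for the same direction in both tissues changed sign under at least 1 alternative for 10 of them, and under at least 1 of the 4 scalings for 5. Leaving out Col-0 shoot replicate 1 also turned the nitrate list (-0.015 relative to the members' median), and leaving out replicate 2 the cell cycle list (-0.053) and the touch, wound and cold list (0.11). With each library left out in turn, 832 of 1024 comparisons of named genes kept their direction and side of the threshold. With the other alternatives 1456 of 1536 did. Those include the median-ratio rescaling less Col-0 shoot replicate 1, where most of their changes arose. For 102 named genes the compared value was the interaction, which passed for none with all libraries kept. Keeping the side of the threshold is therefore no sign of a stable result. The cause of the changes under the alternatives was not tested.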

Other observations

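CAB1, a chlorophyll-binding antenna gene, had 16938 and 15861 FPKM in mutant shoot, against 0 and 21258 FPKM in Col-0 shoot. AT3G41768 had 4430.1 and 0 FPKM in mutant shoot and was listed at 0 in both Col-0 shoot libraries, while its root values were 1993 and 2665 FPKM in the mutant, against 1810 and 4232 FPKM in Col-0. The 13 genes of seed storage and oil bodies summed to at most 1.82 FPKM in any root library, and to 4.91 and 3.92 FPKM in mutant shoot, against 7.82 and 3.96 FPKM in Col-0 shoot.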
